A study of Mus musculus with 12 samples.

Results

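The 8 genes described here mark stem and progenitor cells and were measured in tumors driven by the oncogene MYCN, from mice of 1 genotype, LSL-MYCN;hGFAP-Cre. These are Sox2, Sox4, Sox9, Sox11, Nes, Prom1, Lin28b and Hmga2, and every probe set that the platform annotates to 1 of these symbols was taken. That gave 27 of 45037 probe sets and 8 of 18193 genes, and 0 of the 27 probe sets was shared with another symbol. In these mice Cre recombinase, under a human GFAP promoter, removes a floxed stop and so turns on MYCN together with a luciferase reporter. All animals carried both transgenes on a mixed genetic background, and their tumors were untreated. The age of the animals is not in the labels. There were 9 pancreatic tumors (numbers 1 to 5 and 9 to 12) and 3 pituitary tumors (6, 7 and 8), with 1 array each. The labels give the tissue of tumors 6, 7 and 8 as brain, and the study's methods place them at the pituitary. Mice of this genotype can bear tumors at both sites. Whether any of the 12 tumors share a mouse is not given, and the test treats them as independent.

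SOX proteins are transcription factors with a high mobility group domain. SOX2 maintains neural stem cells and the stem cells of the anterior pituitary, SOX9 marks the progenitors of the embryonic pancreas and, later, its ducts, and SOX4 and SOX11 act in neuronal and endocrine precursors. Nestin (Nes) is an intermediate filament of neural stem cells and of some vessel cells, prominin 1 (Prom1, CD133) is a glycoprotein of membrane protrusions on stem cells and epithelia, LIN28B is an RNA-binding protein that blocks maturation of let-7 microRNAs, and HMGA2 is a chromatin protein whose mRNA is a let-7 target.

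Sox2 was lower and Prom1 higher in pancreatic than in pituitary tumors, and Lin28b and Hmga2 lay at background at both sites. MYC proteins are known to bind the E-box CACGTG, which only Lin28b held among the 8 member promoters searched. These 8 promoters belong to 7 members, and none was available for Sox9. The promoters of 3 members, Sox2, Prom1 and Lin28b, are shown. Each is the 250 bases before a transcript start in the table used, 5′ to 3′ on the strand of the gene, from RefSeq (GRCm38.p6). The Prom1 and Lin28b windows lie inside the spans annotated for these genes, downstream of their outermost ends. Capitals mark the E-box CACGTG, the GC box GGGCGG and the CCAAT box CCAAT, each searched on both strands. The 3 motifs do not overlap one another in these windows.
Sox2, chr3:34649745-34649994, plus strand: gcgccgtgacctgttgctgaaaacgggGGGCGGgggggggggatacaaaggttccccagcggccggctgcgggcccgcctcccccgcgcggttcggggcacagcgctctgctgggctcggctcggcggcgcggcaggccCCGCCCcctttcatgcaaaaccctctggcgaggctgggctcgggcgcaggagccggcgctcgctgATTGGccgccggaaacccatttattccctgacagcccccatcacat
Prom1, chr5:44101737-44101986, minus strand: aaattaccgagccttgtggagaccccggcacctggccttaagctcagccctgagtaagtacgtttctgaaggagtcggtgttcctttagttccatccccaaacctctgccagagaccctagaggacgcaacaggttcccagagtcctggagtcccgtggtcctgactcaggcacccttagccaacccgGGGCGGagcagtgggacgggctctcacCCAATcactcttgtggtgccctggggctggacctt
Lin28b, chr10:45470202-45470451, minus strand: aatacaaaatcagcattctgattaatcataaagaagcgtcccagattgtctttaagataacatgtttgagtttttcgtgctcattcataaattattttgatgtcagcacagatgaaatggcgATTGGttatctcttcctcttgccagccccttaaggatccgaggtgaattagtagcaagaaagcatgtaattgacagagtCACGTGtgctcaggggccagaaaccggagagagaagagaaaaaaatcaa
The Sox2 window held 2 GC boxes and 1 CCAAT box, and the Prom1 window, the first of 2 listed for this gene, held 1 of each. The Lin28b window held the 1 E-box found among 8 promoters of 7 members, at 49 bases before the start, and 1 CCAAT box. Over all 32851 promoters of this length, 6.02% held the E-box, 32.7% the GC box and 33.8% the CCAAT box, against 1, 5 and 5 of the 8 member promoters. A match describes the letters only.

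Values are log2 signals, normalized between arrays by the authors. The median probe set of an array lay at 5.45 to 5.69 in the pancreatic tumors, against 5.53 to 5.61 in the pituitary tumors. As no detection calls were used, a signal at or below it is called background here, and levels of different probe sets are not compared. The site labels were checked against defining markers. Gcg, for glucagon, lay at 8.85 to 14.41 in the pancreatic tumors, against 5.34 to 6.38 in the pituitary tumors, and Six6, a pituitary and hypothalamic transcription factor, at 3.33 to 3.98 in the pancreatic tumors, against 6.95 to 10.78 in the pituitary tumors. Pancreatic tumor 2 stood apart, with the neuroendocrine marker Chga at 9.58, the lowest of the pancreatic tumors, and albumin (Alb) at 15.01, the highest. Alb was also high in pancreatic tumors 3, 4, 11 and 12 (13.42, 13.65, 12.28 and 11.01). The 3 pituitary tumors were unequal in neuronal and glial RNA. The mean over 9 neuronal genes was 5.06 to 7.73 in the pancreatic tumors, against 10.60, 7.03 and 10.52 in pituitary tumors 6, 7 and 8. By the test described below, 2 of the 9 were lower in pancreatic tumors and 0 were higher. Over all genes 4.5% were lower, 1.61% higher and 6.11% either, and the counts for the later lists stand beside these same shares. Gad1, an enzyme of GABA neurons, read 2.92 to 3.41 in the pancreatic tumors, against 11.32, 3.05 and 12.52 in pituitary tumors 6, 7 and 8. Slc17a6, a glutamate transporter of neuronal vesicles, was high in tumor 7 too, at 4.04 to 5.41 in the pancreatic tumors, against 9.52, 8.53 and 9.39 in pituitary tumors 6, 7 and 8. Snap25, a neuronal and endocrine release protein, read 6.65 to 11.49 in the pancreatic tumors, against 13.66, 11.72 and 13.67 in pituitary tumors 6, 7 and 8. The control probe sets at the 3′ and 5′ ends of Actb and Gapdh differed most in pancreatic tumor 5 (3.48 and 2.29). For Actb they differed least in pancreatic tumors 10, 11 and 12 (0.57 to 0.87), which had the 3 negative differences for Gapdh (-0.22 to -0.12). In such bulk samples, fewer cells of a type and less RNA per cell cannot be told apart.

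Sox2 was lower and Prom1 higher in pancreatic than in pituitary tumors, and the other 6 genes did not pass the test at any probe set. The test was limma over all probe sets, with Benjamini-Hochberg adjustment. In all, 1 of the 27 probe sets was higher in pancreatic tumors, where 1.18% of all probe sets were, and 1 was lower, where 3.45% were. In either direction this is 2 of 27, where 4.63% of all probe sets passed. Another 3 had an unadjusted p under 0.05. The groups did not overlap at 3 of the 27, where 7.88% of all probe sets showed this. Across the 8 representative probe sets, that is, for each gene the probe set whose 2 group means had the highest average, the median difference of pancreatic minus pituitary tumors was -0.45, beside 0.03 over all genes. Over all 27 probe sets it was -0.00, beside 0.06 over all probe sets. Of the 27, 9 were at background in all 12 tumors and 6 were above it in all.

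**Figure D1:**
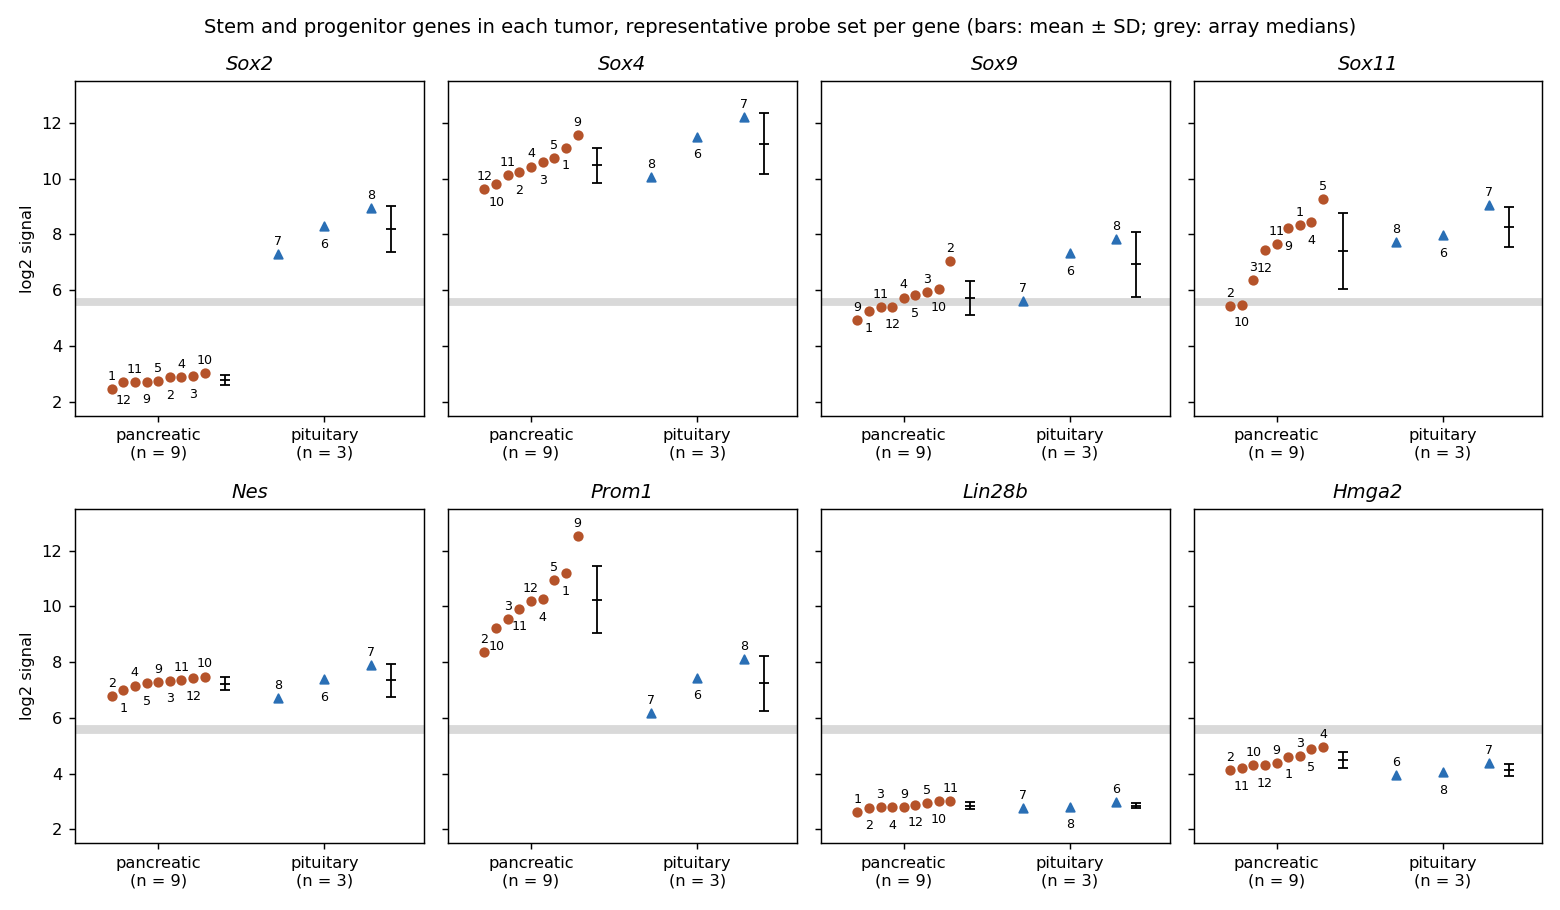
Log2 signal (vertical axis) of the representative probe set of each gene in every tumor, pancreatic (circles) and pituitary (triangles), numbered as in the labels, with mean ± SD beside each group and the range of array medians in grey. Sox2 lies between 2.46 and 3.03 in pancreatic and 7.31 and 8.96 in pituitary tumors, Prom1 has all 9 pancreatic tumors above all 3 pituitary tumors, and Lin28b and Hmga2 lie under the grey band at both sites.

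Sox2 showed the largest difference of the members. Its 1 probe set (1416967_at, gene at chr3:34649995-34652461) read 2.46, 2.89, 2.91, 2.90 and 2.74 in pancreatic tumors 1 to 5 and 2.72, 3.03, 2.70 and 2.70 in tumors 9 to 12, against 8.29, 7.31 and 8.96 in pituitary tumors 6, 7 and 8. All 9 pancreatic tumors were at background and all 3 pituitary tumors above it, so that the groups lay far apart. The means were 2.78 ± 0.17 (SD, n = 9) in the pancreatic group, against 8.19 ± 0.83 (SD, n = 3) in the pituitary group, a log2 difference of -5.41 (SE 0.26, limma adjusted p = 2.08e-07). Because the pancreatic signal is at background, the fold can only be bounded. With each pancreatic signal set at the median of its array, Sox2 was at least 6.28-fold lower in pancreatic tumors. The difference stayed past the threshold under all 24 alternatives, and was -4.53 (limma adjusted p = 2.00e-06) with pituitary tumor 7 as the only pituitary tumor, whose spread is then taken from the pancreatic tumors.

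Sox2 lies inside a longer noncoding gene, Sox2ot (chr3:34560381-34677993). The Sox2ot probe set read 2.74 to 3.12 in the pancreatic tumors, against 5.28, 3.17 and 5.77 in pituitary tumors 6, 7 and 8 (difference -1.74, SE 0.39, limma adjusted p = 0.0260). Pituitary tumor 7 thus had Sox2 at 7.31 with Sox2ot close to the pancreatic range, and Sox2ot was above background in 1 of the 3 pituitary tumors.

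Astrocytes and neural stem cells also make Sox2, and their RNA differed between the pituitary tumors. The mean log2 signal over the 10 genes of a list for these cells was 5.32 to 7.07 in the pancreatic tumors. In pituitary tumors 6, 7 and 8 it was 10.62, 7.00 and 10.51. The 7.07 was that of pancreatic tumor 2, and the other pancreatic tumors had 5.32 to 6.17, under pituitary tumor 7. In tumor 2 the list gene Aldh1l1 read 12.17, with 8.40 and 8.79 in tumors 3 and 4 and 4.25 to 5.54 in the other pancreatic tumors. In pituitary tumors 6, 7 and 8 Aldh1l1 read 7.87, 5.17 and 8.66. The part of liver RNA in these means was not tested. Of the 10, 0 were higher and 6 were lower in pancreatic tumors, with a median difference of -3.91, where over all genes 1.61% were higher, 4.5% lower and 6.11% either, and the median was 0.03. Of the 10, 0 were at background in all tumors. Slc1a3, a glial glutamate transporter, read 3.65 to 4.43 in the pancreatic tumors, against 11.80, 5.07 and 12.51 in pituitary tumors 6, 7 and 8. Fabp7, a fatty acid binding protein of radial glia, read 4.65 to 6.25 in the pancreatic tumors, against 11.68, 7.74 and 10.81 in pituitary tumors 6, 7 and 8. Slc1a2, another glial glutamate transporter, read 3.80 to 7.14 in the pancreatic tumors, against 13.23, 9.26 and 11.63 in pituitary tumors 6, 7 and 8. The 7.14 was that of pancreatic tumor 2, with 3.80 to 4.77 in the others. Aqp4, an astrocyte water channel, read 2.91 to 7.61 in the pancreatic tumors, against 11.14, 7.01 and 11.47 in pituitary tumors 6, 7 and 8. Its 7.61 was again that of pancreatic tumor 2, with 2.91 to 3.66 in the others. Aldoc was above background in all pancreatic tumors (7.02 to 10.71), and read 13.70, 9.95 and 14.46 in pituitary tumors 6, 7 and 8. Of the 6 genes, 4 (Slc1a2, Aqp4, Aldoc and Fabp7) were above background in pituitary tumor 7, where Sox2 was 7.31. The other 2 (Slc1a3 and Ntsr2) were at background there. In tumor 7, 3 of the 6 (Slc1a2, Fabp7 and Slc1a3) lay above all pancreatic tumors. All 6 were lowest in tumor 7 among the pituitary tumors. Mouse Gfap, for an astrocyte filament, read 5.67 to 6.32 in the pancreatic tumors, against 8.02, 5.64 and 6.60 in pituitary tumors 6, 7 and 8. It did not pass the test, and the promoter that drives Cre here is that of the human gene. The part of glial RNA in the Sox2 values was not tested. Lhx3, a transcription factor of the pituitary primordium, read 4.83 to 5.74 in the pancreatic tumors, against 9.39, 10.32 and 7.92 in pituitary tumors 6, 7 and 8 (difference -3.89, limma adjusted p = 9.42e-05). Its order over these 3 tumors was the reverse of that of Sox2.

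**Figure D2:**
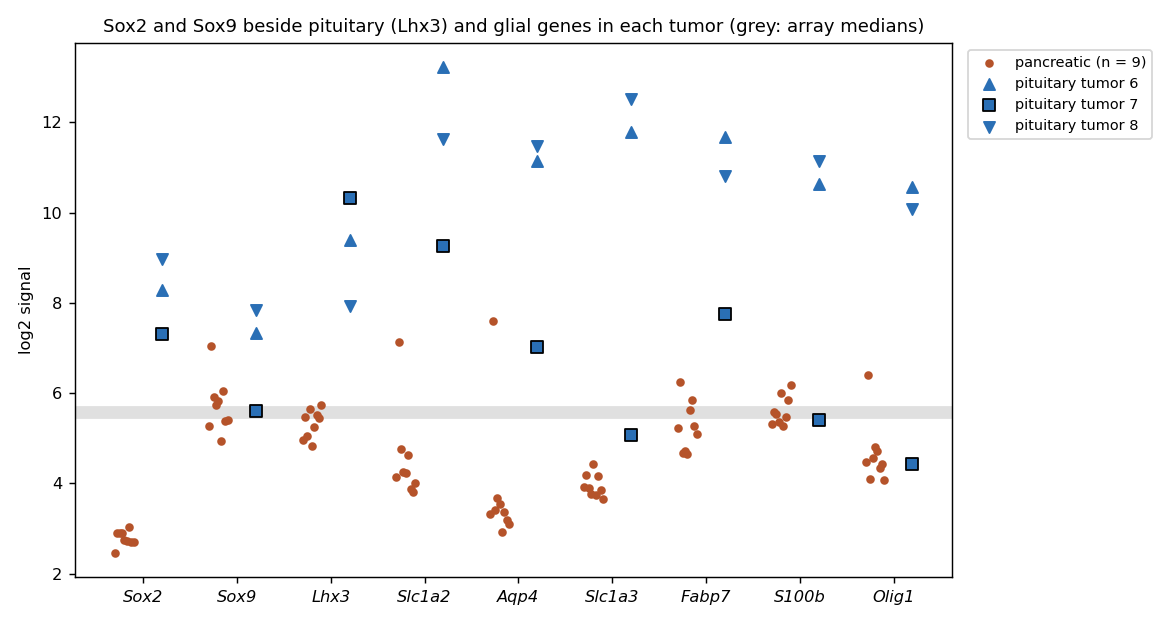
Log2 signal (vertical axis) of Sox2 and Sox9, of the pituitary gene Lhx3 and of 6 glial genes in the 9 pancreatic tumors (circles) and in pituitary tumors 6, 7 (outlined square) and 8, with array medians in grey. Pituitary tumor 7 has Sox2 at 7.31, Lhx3 at 10.32, Slc1a2 at 9.26, Fabp7 at 7.74 and Aqp4 at 7.01, and Slc1a3 at 5.07, S100b at 5.40 and Olig1 at 4.43.

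Sox9 did not pass the test at any of its 3 probe sets (gene at chr11:112782210-112787757). The representative one (1451538_at) read 5.27, 7.04, 5.92, 5.74 and 5.83 in pancreatic tumors 1 to 5 and 4.94, 6.04, 5.38 and 5.41 in tumors 9 to 12, against 7.34, 5.60 and 7.84 in pituitary tumors 6, 7 and 8. The groups overlapped, with pituitary tumor 7 inside the pancreatic range and pancreatic tumor 2 above the other 8. The difference was -1.19 (SE 0.47, limma adjusted p = 0.179). It passed the threshold without pituitary tumor 7 (-1.86, limma adjusted p = 0.0253) and with array weights (-1.48, limma adjusted p = 0.0235), and was 0.13 with tumor 7 as the only pituitary tumor. The 2 pituitary tumors with high Sox9 were those with the higher mean over the astrocyte list (10.62 and 10.51, with 7.00 in tumor 7), and the part of glial RNA in the values was not tested. The probe set 1424950_at had the same order of pituitary tumors, at 3.65 to 5.85 in the pancreatic tumors, against 5.61, 4.38 and 6.45 in pituitary tumors 6, 7 and 8 (difference -1.03, limma adjusted p = 0.260). The third, 1433889_at, was at background in all 12 tumors (3.54 to 4.90, difference 0.00).

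Pancreatic tumor 2 had the highest pancreatic signal at all 3 Sox9 probe sets (7.04, 5.85 and 4.90). This tumor also had the highest mean over 6 hepatocyte genes, at 14.50. The other pancreatic tumors had 6.92 to 12.62, highest in tumors 3 and 4, and the pituitary tumors 5.57 to 6.63. Apoa1, a liver apolipoprotein, read 14.63 in tumor 2, with 5.10 to 12.13 in the other 8, against 5.34 to 5.73 in the pituitary tumors. Liver bile ducts and pancreatic ducts make Sox9. The duct keratin Krt19 read 4.59 to 6.46 in the pancreatic tumors, against 4.52 to 4.87 in the pituitary tumors, with 5.62 in tumor 2, just above background. Of 9 measured duct genes, 2 were higher (Krt7 and Krt8) and 1 was lower (Car2) in pancreatic tumors, with a median difference of 0.47. The mean over these genes was 7.75 in tumor 2, the lowest of the pancreatic tumors, with 8.08 to 8.39 in the others. Tumor 2 had the lowest pancreatic Krt7 (7.17) and the highest Krt8 (12.54). Acinar RNA differed too, with the mean over 7 acinar genes at 6.06 to 12.84 in the pancreatic tumors, highest in tumors 3 and 4, against 5.18 to 5.71 in the pituitary tumors. Of the 7, 1 (Cela1, an elastase) was higher and 0 were lower in pancreatic tumors, with a median difference of 3.04. The carboxypeptidases Cpa1 and Cpb1 read 5.05 to 12.30 and 4.15 to 13.22 in the pancreatic tumors, against 4.96 to 5.48 and 3.37 to 3.93 in the pituitary tumors, and did not pass the test. The part of ducts, acini and liver RNA in the Sox9 values was not tested.

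Sox4 was read by 8 probe sets (gene at chr13:28948919-28953699), of which 0 passed the test. Differences ran from -0.78 to 0.87, with 6 above 0 and 2 below it, and limma adjusted p from 0.266 to 0.936. The representative probe set (1433575_at) read 11.11, 10.24, 10.59, 10.44 and 10.74 in pancreatic tumors 1 to 5 and 11.57, 9.81, 10.12 and 9.64 in tumors 9 to 12, against 11.51, 12.20 and 10.05 in pituitary tumors 6, 7 and 8. The signal was high at both sites and the groups overlapped (difference -0.78, SE 0.46, 95% interval -1.77 to 0.21, limma adjusted p = 0.378). The interval reaches further below 0 than above it.

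The Sox4 probe sets disagreed on which pancreatic tumors were high. Probe sets 1419155_a_at and 1419156_at were highest in tumor 5 (10.83 and 11.02), where the other pancreatic tumors had 7.81 to 9.11 and 7.51 to 8.99. Probe set 1455867_at was also highest in tumor 5 (6.17, with 5.47 to 5.81 in the other pancreatic tumors). Probe set 1419157_at was highest in tumors 10, 11 and 12 (7.14, 7.46 and 6.74), where the other 6 pancreatic tumors had 4.43 to 5.73 and the pituitary tumors 4.49 to 4.96. Probe set 1449370_at likewise had its highest values in these 3 tumors (6.60 to 7.30, against 5.60 to 6.32 in the other 6 pancreatic tumors). At the representative probe set the same 3 tumors were the lowest of the pancreatic group (9.64 to 10.12, against 10.24 to 11.57). Tumor 5 had the widest 3′ to 5′ gap of the Actb and Gapdh controls and tumors 10, 11 and 12 the narrowest for Actb, and the part of RNA quality or labelling in these values was not tested. Probe sets 1443778_at and 1458332_x_at were at background in all 12 tumors.

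**Figure D3:**
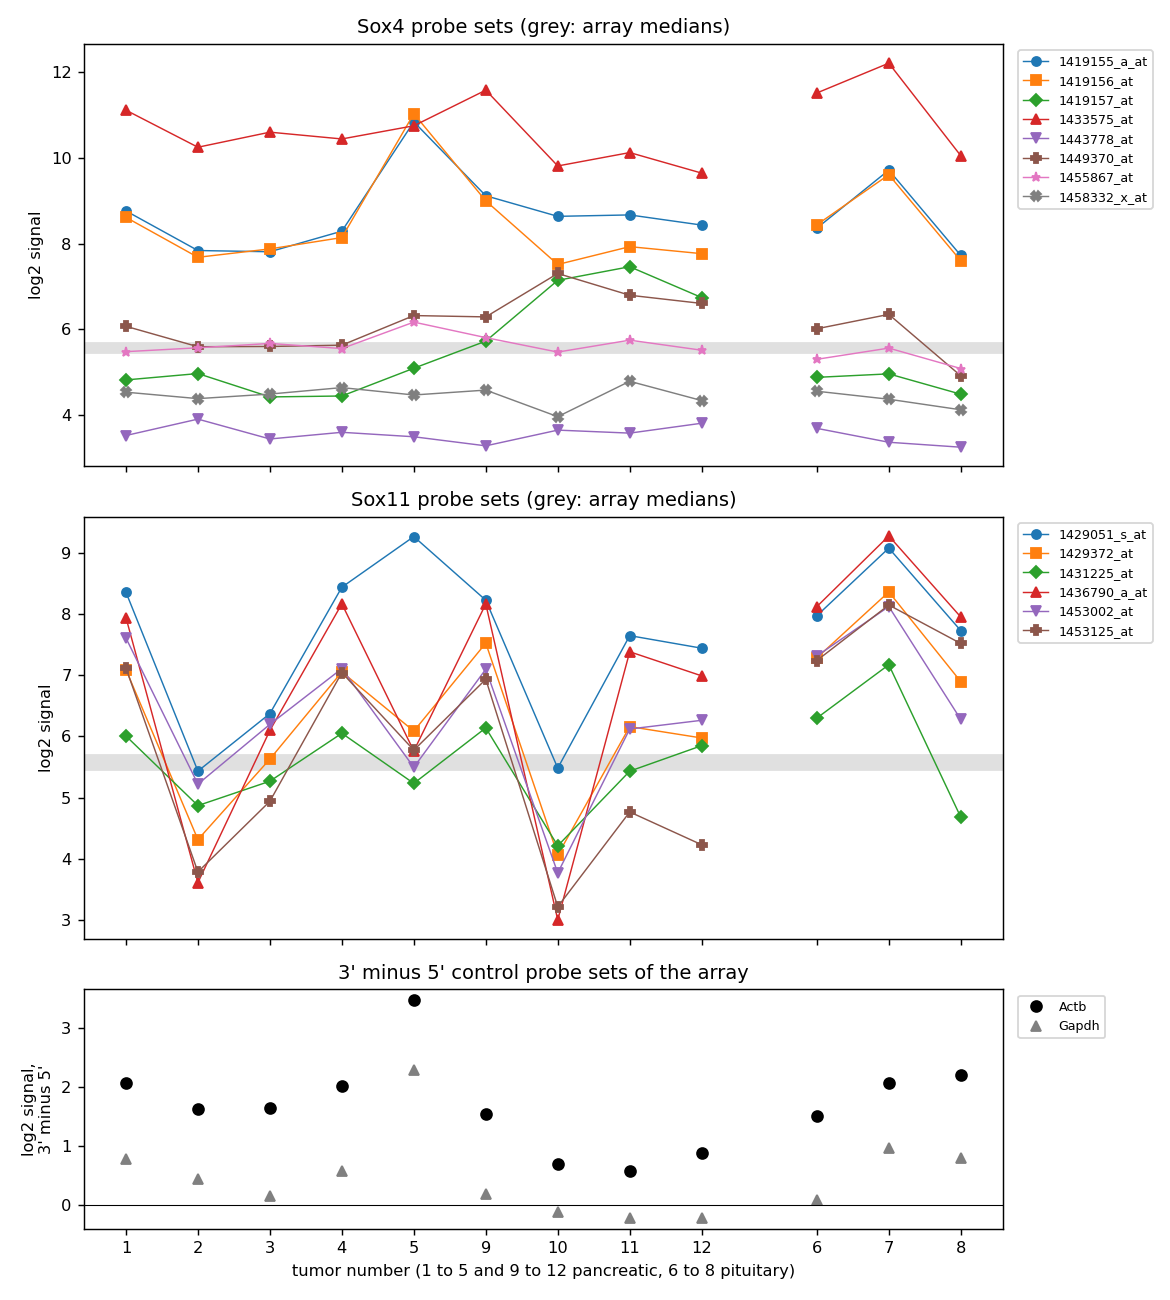
Log2 signal (vertical axes) of each Sox4 probe set (top) and Sox11 probe set (middle) by tumor, pancreatic tumors left of pituitary tumors, over the 3′ minus 5′ log2 difference of the Actb and Gapdh control probe sets (bottom). Tumor 5 is the highest of all 12 at 3 Sox4 probe sets (10.83, 11.02 and 6.17) and has the widest Actb gap (3.48), and among the pancreatic tumors every Sox11 probe set is lowest in tumors 2 and 10.

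At each of its 6 probe sets Sox11 ranged more widely among the pancreatic tumors than its site means differed. All 6 probe sets (gene at chr12:27334268-27342718) had a lower mean in pancreatic tumors, by -2.32 to -0.60, but 0 passed the test (limma adjusted p from 0.136 to 0.580). Probe set 1436790_a_at read 7.94, 3.62, 6.10, 8.16 and 5.76 in pancreatic tumors 1 to 5 and 8.16, 3.01, 7.38 and 6.99 in tumors 9 to 12, against 8.12, 9.27 and 7.95 in pituitary tumors 6, 7 and 8. Pancreatic tumors 2 and 10 were at background, while tumors 4 and 9 lay inside the pituitary range. The difference was -2.10 (SE 1.07, 95% interval -4.42 to 0.22, limma adjusted p = 0.307). Probe set 1453125_at had the largest difference and groups that did not overlap, at 3.22 to 7.12 in the pancreatic tumors, against 7.24 to 8.14 in the pituitary tumors (-2.32, SE 0.81, limma adjusted p = 0.136).

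Tumors 2 and 10 were the lowest 2 pancreatic tumors at all 6 Sox11 probe sets, and pituitary tumor 7 was the highest of the pituitary tumors at all 6. At the representative probe set (1429051_s_at) tumors 2 and 10 read 5.44 and 5.48, where the other 7 pancreatic tumors had 6.37 to 9.26 and the pituitary tumors 7.73 to 9.07. The pancreatic signals spanned 3.82 log2 units, with tumor 2 at background. Tumor 5 was the highest pancreatic tumor there (9.26) but the third lowest at probe set 1453002_at (5.50), as the Sox4 probe sets also split on this tumor. Tumor 2 had the least neuroendocrine RNA, with Insm1, a transcription factor of neuroendocrine cells, at 6.56 where the other pancreatic tumors had 10.70 to 12.79. Tumor 10 had Insm1 at 10.70 and the highest mean over 7 leukocyte genes (8.13, with 6.09 to 7.14 in the other pancreatic tumors). In that tumor the leukocyte genes Ptprc (8.99) and Cd3e (6.68) were the highest of all 12. The part of admixed cells in the Sox11 values was not tested.

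Genes of neuron differentiation that SOX4 and SOX11 are known to activate, or that are expressed along with them, were taken as a list. Of 9 measured, 0 were higher and 1 was lower in pancreatic tumors, with a median difference of 0.06. The 1 was Tubb3, a neuronal beta-tubulin and a known SOX11 target, at 5.49 to 7.58 in the pancreatic tumors, against 10.38, 8.87 and 9.86 in pituitary tumors 6, 7 and 8 (difference -2.94, limma adjusted p = 0.00224). All 3 pituitary tumors lay above all pancreatic tumors, tumor 7 included. With tumor 7 as the only pituitary tumor the difference was -2.11 (limma adjusted p = 0.336).

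Nes read nearly the same at both sites. Its representative probe set (1449022_at, gene at chr3:87971093-87980451) ranged from 6.79 in tumor 2 over a median of 7.30 to 7.48 in tumor 10 in the pancreatic group, against 7.40, 7.91 and 6.73 in pituitary tumors 6, 7 and 8. The 3 pituitary tumors spanned more than the 9 pancreatic tumors did. The difference was -0.11 (SE 0.22, 95% interval -0.59 to 0.36, limma adjusted p = 0.812). The probe set 1418289_at, also above background in all tumors, differed by -0.18 (limma adjusted p = 0.582), and 1453997_a_at was at background in all tumors. Nestin is also made by vessel cells. Of 9 endothelial genes, 0 passed the test and the median difference was 0.81. Their defining genes Pecam1 and Cdh5 read 4.78 to 7.06 and 6.33 to 8.45 in the pancreatic tumors, against 4.71 to 4.86 and 6.13 to 6.24 in the pituitary tumors. Of 10 genes of pericytes and stroma 0 were higher and 1, the collagen gene Col1a2, was lower, with a median difference of 0.11. The pericyte genes Pdgfrb and Rgs5 read 5.27 to 10.16 and 8.80 to 12.34 in the pancreatic tumors, against 7.89 to 8.86 and 10.67 to 11.05 in the pituitary tumors. The part of vessel cells in the Nes values was not tested.

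Prom1 was the member that was higher in pancreatic tumors. Its 1 probe set (1419700_a_at, gene at chr5:43993621-44102047) read 11.19, 8.38, 9.56, 10.25 and 10.96 in pancreatic tumors 1 to 5 and 12.54, 9.22, 9.92 and 10.17 in tumors 9 to 12, against 7.45, 6.18 and 8.12 in pituitary tumors 6, 7 and 8. The groups did not overlap, although pancreatic tumor 2 lay just above pituitary tumor 8, and all 12 tumors were above background. The means were 10.24 ± 1.21 (SD, n = 9) in the pancreatic group, against 7.25 ± 0.98 (SD, n = 3) in the pituitary group. The log2 difference was 2.99 (SE 0.72, limma adjusted p = 0.0349), or 7.97-fold with a 95% interval of 2.70 to 23.5.

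The Prom1 call lay near the threshold. Leaving out any 1 tumor kept the difference between 2.46 and 3.43. The limma adjusted p was 0.0503, 0.0593, 0.0541 and 0.0616 without pancreatic tumor 1, 4, 11 or 12, and 0.131, 0.127 and 0.0723 without pituitary tumor 6, 7 or 8. Without pancreatic tumors 10, 11 and 12 the difference was 3.23 (limma adjusted p = 0.109), and with tumor 7 as the only pituitary tumor it was 4.06 (0.232). Prom1 spanned 4.16 log2 units among the pancreatic tumors, a 17.9-fold range, with tumor 9 the highest and tumor 2 the lowest.

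**Figure D4:**
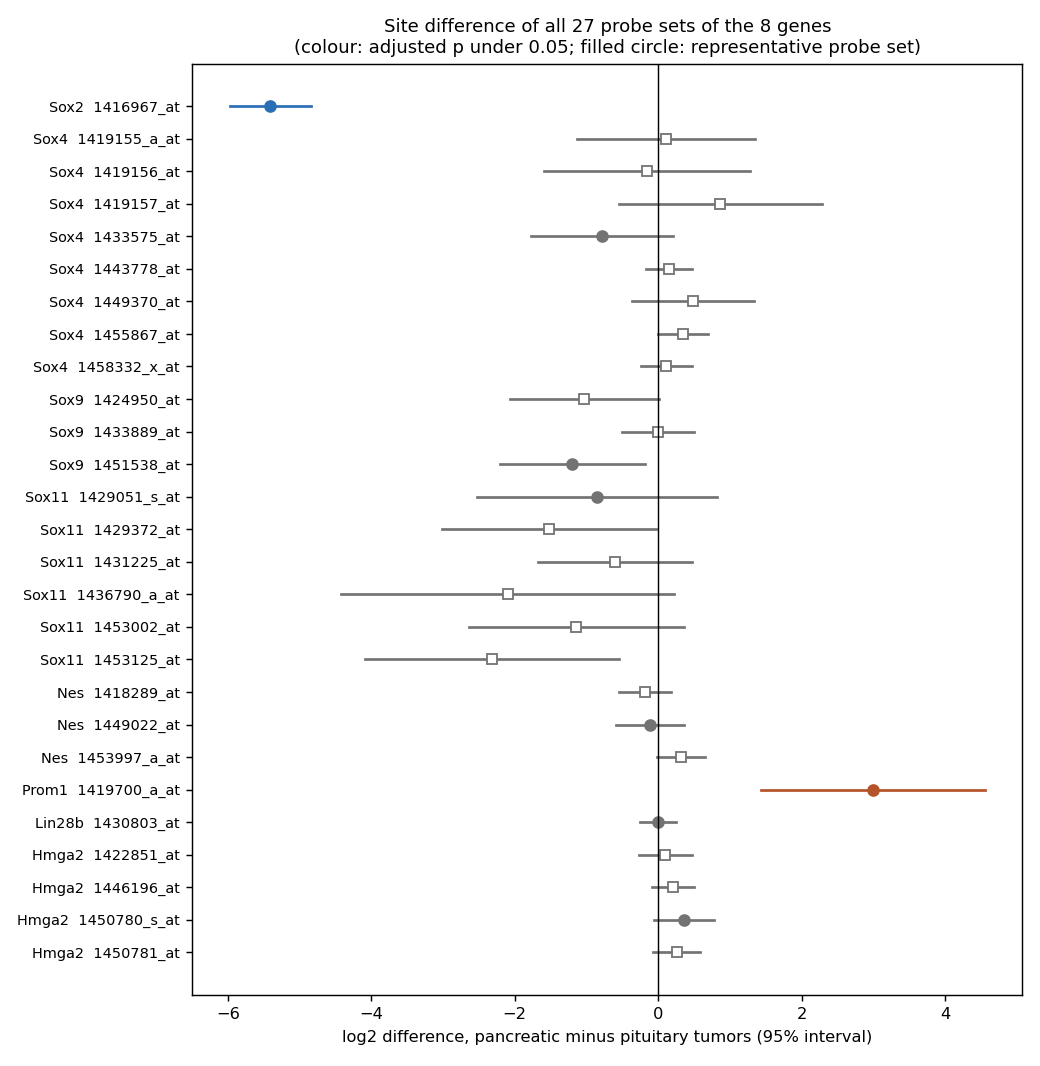
Log2 difference of pancreatic minus pituitary tumors (horizontal axis) with its 95% interval for each of the 27 probe sets, filled circles for the representative ones. Sox2 (-5.41, blue) and Prom1 (2.99, orange) passed the adjusted threshold, all 6 Sox11 probe sets lie below 0, and the 4 Hmga2 probe sets lie close to it.

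Other surface markers of epithelial and stem cells were read beside Prom1. Cd44, a hyaluronan receptor, was 8.59 to 12.57 in the pancreatic tumors against 7.59 to 7.85 in the pituitary tumors (difference 3.60, limma adjusted p = 0.00916), with tumor 2 the lowest of the pancreatic group as for Prom1. Cdh1, for E-cadherin, was 9.10 to 12.16 in the pancreatic tumors against 6.96 to 7.13 in the pituitary tumors (difference 3.96, limma adjusted p = 0.000830). Both had groups that did not overlap. Kit, a receptor for stem cell factor, ran the other way, at 4.06 to 6.96 in the pancreatic tumors against 8.03, 7.53 and 9.97 in pituitary tumors 6, 7 and 8 (difference -3.01, limma adjusted p = 0.0200). The call for Cd44 was lost without pituitary tumor 8 (limma adjusted p = 0.0536), and that for Kit without pituitary tumor 6 (0.0649) or 8 (0.132). Other surface markers did not pass the test, among them Epcam (difference -0.69, limma adjusted p = 0.705), Cd9 (-0.34, 0.738) and Cd24a (2.42, 0.160). Epcam was 7.91 to 12.96 in the pancreatic tumors against 11.68 to 13.06 in the pituitary tumors.

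Lin28b and Hmga2, which sit at either end of the let-7 axis, were at background in all 12 tumors at all 5 of their probe sets. Lin28b (1430803_at, gene at chr10:45376617-45486314) ranged from 2.63 over a median of 2.81 to 3.03 in the pancreatic tumors, against 2.98, 2.78 and 2.82 in pituitary tumors 6, 7 and 8 (difference -0.00, SE 0.11, limma adjusted p = 0.998). The 4 Hmga2 probe sets (gene at chr10:120361268-120476469) ranged from 3.21 to 4.95 over all tumors, with differences of 0.10 to 0.36 (limma adjusted p from 0.331 to 0.781). A transcript level under what these probe sets can read was not detectable, and its absence is not shown. Of 8 measured genes of a LIN28 and let-7 list, 0 passed the test in either direction, with a median difference of 0.11. Lin28a, the paralog of Lin28b, was at background too, at 3.49 to 4.23 in the pancreatic tumors, against 3.70 to 3.87 in the pituitary tumors. Dicer1, whose enzyme cuts microRNA precursors, was well above background, at 7.98 to 8.83 in the pancreatic tumors, against 7.42 to 8.23 in the pituitary tumors (difference 0.69, limma adjusted p = 0.0993).

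The 15 other measured Sox genes held 0 that were higher and 2 that were lower in pancreatic tumors, with a median difference of 0.11. Both act in glia. Sox8 read 3.05 to 3.65 in the pancreatic tumors, all at background, against 6.30, 3.62 and 6.48 in pituitary tumors 6, 7 and 8 (difference -2.13, limma adjusted p = 0.0219). Sox10 read 6.33 to 6.91 in the pancreatic tumors, against 8.06, 6.77 and 7.92 in pituitary tumors 6, 7 and 8 (difference -1.02, limma adjusted p = 0.0306). In both, pituitary tumor 7 lay inside the pancreatic range, unlike for Sox2. The Sox8 call was lost without pituitary tumor 6 (limma adjusted p = 0.150) or 8 (0.144), and that for Sox10 without pituitary tumor 6 (0.191) or 8 (0.182) or pancreatic tumor 3 or 10 (0.0535 each). Among 7 oligodendrocyte genes 1, Mobp, was lower in pancreatic tumors, and the list mean was 5.11 to 5.44 in the pancreatic tumors, against 9.28, 5.24 and 8.54 in pituitary tumors 6, 7 and 8. Its defining factor Olig1 read 4.07 to 6.40 in the pancreatic tumors, against 10.57, 4.43 and 10.07 in pituitary tumors 6, 7 and 8. Olig2 read 2.82 to 3.19 in the pancreatic tumors, against 6.49, 2.80 and 4.33 in pituitary tumors 6, 7 and 8, and neither passed the test.

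Of 14 other stem cell genes, 2 were higher (Cd44 and Sall4) and 1 was lower (Kit) in pancreatic tumors, with a median difference of -0.26. Sall4, a zinc finger factor of embryonic stem cells, read 5.90 to 8.27 in the pancreatic tumors against 4.79 to 5.46 in the pituitary tumors (difference 1.95, limma adjusted p = 0.0118), with all 3 pituitary tumors at background. The call was lost without pituitary tumor 8 (limma adjusted p = 0.0531). The core pluripotency genes Pou5f1 and Nanog were at background in all 12 tumors, at 3.44 to 4.40 and 2.87 to 3.44 in the pancreatic tumors, against 3.79 to 4.16 and 3.12 to 3.25 in the pituitary tumors.

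Of 10 measured genes of pituitary stem and progenitor cells, 1 was higher (Cdh1) and 2 were lower (Lhx3 and S100b) in pancreatic tumors, with a median difference of 0.21. S100b, which also marks astrocytes, read 5.26 to 6.17 in the pancreatic tumors, against 10.63, 5.40 and 11.14 in pituitary tumors 6, 7 and 8 (difference -3.44, limma adjusted p = 0.0475). The S100b call was lost without pituitary tumor 6 (0.255) or 8 (0.272), and without each of the 9 pancreatic tumors in turn (limma adjusted p 0.0526 to 0.0776). In pituitary tumor 7 it lay at background, where Sox2 did not. Hesx1, a repressor of the early pituitary, was at background in all 12 tumors (3.25 to 4.20 in the pancreatic tumors, against 2.98 to 3.41 in the pituitary tumors).

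The members were set against each other over the 9 pancreatic tumors, in 28 pairs of representative probe sets, each with a two-sided exact permutation test over 362880 pairings. After Benjamini-Hochberg adjustment over the 28 pairs 0 passed (lowest adjusted p = 0.137 for Pearson's r and 0.116 for Spearman's rho), and 5 and 6 had an unadjusted p under 0.05. The most negative was Sox9 with Prom1 (r = -0.84, permutation p = 0.00621, and rho = -0.83, permutation p = 0.00827), and the most positive was Sox11 with Prom1 (r = 0.79, permutation p = 0.00980, and rho = 0.83, permutation p = 0.00827). Without the 2 tumors farthest from the median of the first gene r was -0.56 and 0.57. Without tumor 2, which was highest in Sox9 and lowest in Prom1 and Sox11, r was -0.78 and 0.69.

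For the members that varied among the pancreatic tumors with an SD above 0.5, the genes with the most similar pattern were sought among 11543 genes above background in at least 5 of the 9. These were Eif3c (r = 0.95) and Svip (0.94) for Sox4, H6pd (0.96) and Bmp1 (0.95) for Sox9, Tox3 (0.97) and Marcks (0.95) for Sox11, and Tram1 (0.95) and Gal3st1 (0.95) for Prom1. These are descriptions over 9 tumors, picked as the highest of 11543 values, and carry no test.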

How the data were processed

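Total RNA of 9 pancreatic and 3 pituitary tumors was hybridized to MG-430_2.0 arrays. The authors deposited 1 log2 signal per probe set and tumor, after a normalization between arrays. Partek Genomics Suite and, for a further analysis, RMA stand in the methods, which do not say which of them made these values. The values were used as deposited. Other arrays named by the study, of normal pancreas and neuroblastoma, were not analysed here. Precision is limited by the number of arrays, and as the labels do not say which tumors came from separate animals, p-values measure only the spread between these tumors.

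Of the probe sets, 64 controls were removed and the other 45037 tested with limma 3.58.1 (lmFit and eBayes, R 4.3.3), pancreatic minus pituitary, with Benjamini-Hochberg adjustment over all and a threshold of 0.05. The fit was tested on simulated data. Symbols came from the platform annotation (34945 tested probe sets have 1 symbol, 932 have several, and 9160 are unnamed in the table used), and all 27 member probe sets matched a RefSeq gene by Entrez identifier. Coordinates and promoters are those of RefSeq on GRCm38.p6. Each gene is given by the probe set whose 2 group means average highest. The members, the lists and the tests were chosen with earlier results of these data known. The text names all members, up to 4 genes past the threshold and the first 2 of each list, the site markers, and for varying members the 2 most similar genes. Other names (Chga, Aldoc, Ntsr2, Insm1, Lin28a, Dicer1, Pou5f1, Nanog, Krt8 and those in the closing observations) were chosen after their values were seen. So were Epcam, Cd9, Cd24a and Aldh1l1. Other tools were matplotlib 3.10.9, scipy 1.17.1, pandas 2.3.3, numpy 2.4.6 and Python 3.11.15. Settings varied were array weights, quantile normalization, median centring, trended and unmoderated variances, a filter on dim probe sets, a minimum difference, gene means, and tumors left out.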

Additional observations from a re-analysis of the deposited data

Results flagged for a closer look

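In 5 results 1 pancreatic tumor stood further from the other 8 than Dixon's test at the 5% level allows, which chance does in about 1 in 20 groups. Pancreatic tumor 5 was high at the Sox4 probe sets 1419155_a_at (10.83), 1419156_at (11.02) and 1455867_at (6.17) and at the Hmga2 probe set 1422851_at (4.82, at background). The other 8 pancreatic tumors had 7.81 to 9.11, 7.51 to 8.99, 5.47 to 5.81 and 3.98 to 4.24 at these probe sets. Pancreatic tumor 2 was low in Cd44 (8.59, where the other 8 had 10.80 to 12.57). Over all probe sets 18.5% had such a tumor, and over the 27 member probe sets 14.8% did. Tumor 5 was the tumor that stood apart at 8.57% of all probe sets and tumor 2 at 6.54%.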

How the results depend on the processing

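Sox2 kept its direction and call under all alternatives. Of 619 alternative values of the member probe sets, 572 kept direction and side of the threshold. The count of members higher in pancreatic tumors was 0 in place of 1 with an unmoderated variance, without pituitary tumors 6 and 8, and without pancreatic tumors 10 to 12, and 0 to 1 with single tumors left out. The count of those lower was 2 with array weights and 1 to 2 with single tumors left out. Over all probe sets, 533 were higher and 1552 lower. Those higher were 1849 with array weights, 61 without tumors 6 and 8, 214 without tumors 10 to 12, 1247 without tumors 2 and 5 (chosen after seeing the data) and 172 to 886 with single tumors left out. Those lower were 3179, 488 and 571 in the first 3 of these, 967 with an unmoderated variance and 656 to 2000 with single tumors left out. Of the 28 pairs, 1 passed with gene means, and 0 to 1 with single tumors left out. By gene means the strongest correlation was that of Nes with Lin28b (r = 0.90), and Lin28b was at background in all tumors. The cause of these shifts was not tested.

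Some differences turned sign, among them that of S100b, which had passed the threshold at -3.44. Without tumors 6 and 8 these were Sox4 1419155_a_at (-1.002) and 1449370_at (-0.10), Sox9 1424950_at (0.070) and 1451538_at (0.13), Lin28b (0.081) and S100b (0.22). With quantile normalization they were Sox4 1419156_at (0.019), Sox9 1433889_at (-0.018) and Nes 1449022_at (0.061), with array weights Sox9 1433889_at (-0.069), and with median centring Lin28b (0.041). Without tumors 10 to 12 it was Sox4 1419156_at (0.17). Without tumors 2, 3 and 4 they were Sox4 1419156_at (0.093), Sox9 1433889_at (-0.15) and Lin28b (0.029). Without tumors 2 and 5 they were Sox4 1419155_a_at (-0.068) and Sox9 1433889_at (-0.15). Gene means gave 0.14 for Sox4 and 0.0075 for Nes. With single tumors left out, Sox4 1419155_a_at ran from -0.33 to 0.67, 1419156_at from -0.63 to 0.37, Sox9 1433889_at from -0.11 to 0.063, Nes 1449022_at from -0.42 to 0.17 and Lin28b from -0.042 to 0.059. Probe sets at background have only a bound. No paired analysis was possible because the labels do not give the mouse of each tumor.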

Other observations

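Genes of endocrine progenitors and of the cell cycle, picked after their values were seen, were read in the same tumors. Neurog3, the transcription factor of endocrine progenitors in the embryonic pancreas, read 4.94, 4.54, 4.59, 4.89 and 5.88 in pancreatic tumors 1 to 5 and 5.98, 7.25, 4.71 and 4.51 in tumors 9 to 12, against 3.95, 4.04 and 3.44 in pituitary tumors 6, 7 and 8. The groups did not overlap, yet only pancreatic tumors 5, 9 and 10 were above background, and the difference did not pass the test (1.44, limma adjusted p = 0.146). At the representative Sox11 probe set tumor 10, with the highest Neurog3, read 5.48, while tumors 5 and 9 read 9.26 and 8.22. A relation of Neurog3 to Sox11 was not tested. Aldh1a1, a retinaldehyde dehydrogenase used as a stem cell marker and also abundant in liver, read 12.71 in pancreatic tumor 2 and 4.71 to 9.39 in the other 8, against 10.24, 8.40 and 11.24 in pituitary tumors 6, 7 and 8 (difference -2.50, limma adjusted p = 0.382). Of 13 measured proliferation genes 0 passed the test, with a median difference of 0.71, and the list mean ran from 6.81 in tumor 5 and 6.95 in tumor 10 to 9.22 in tumor 3.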
